A study of Homo sapiens with 6 samples.

Results

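The 44 genes described here carry out or time mitosis. They comprise 7 kinases, 7 cyclins with their partner subunits and CDC25 phosphatases, 6 kinesins, 7 checkpoint and kinetochore genes, 3 partners of the anaphase-promoting complex, 3 chromosomal passenger subunits, 7 spindle and cytokinesis genes, 2 chromosome proteins and 2 transcription factors. They were chosen by name, from their known roles and with earlier results of these data known. The choice was made among the 13494 genes to which the transcript values were summed. All 44 had a row and all 44 reached a mean of 0.5 FPKM over the libraries, the least for a test, as did 12952 genes in all.

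RNA was sequenced from NALM6, an established human line from an acute lymphoblastic leukemia of B-cell precursors. One group of 3 libraries came from cells kept 48 h with verteporfin, at a concentration that the labels print as 0.6 mmol/L, and the other group of 3 from cells kept as long with the solvent DMSO. Verteporfin, a porphyrin, is used to keep the coactivator YAP from TEAD factors, where Hippo signaling ends, and Hippo pathway genes before and after the drug were the subject of the study. The labels do not say that replicates were separate cultures, so the p-values rest on a spread among libraries that may be technical only.

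Entry into mitosis is driven by the kinase CDK1 bound to a B-type cyclin, which CDC25 phosphatases switch on. The spindle checkpoint then holds the anaphase-promoting complex, a ubiquitin ligase, until every kinetochore is attached, after which cyclins and securin are destroyed and the cell divides. The RNA of most of these genes accumulates from late S phase to mitosis, so that in dividing leukemia cells their level follows both how many cells are in these phases and how strongly each cell transcribes them.

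The libraries matched the B-cell precursor type of their label, though such markers cannot tell the line or the treatment. Of 15 markers of B-cell precursors 14 had a row and CD24 had none. Their summed values were 1698 to 2080 FPKM with DMSO and 1349 to 2161 FPKM with verteporfin. Of 15 markers of other cell types 3 had a row (LYZ, CD33 and NKG7), with sums of 4.65 to 7.48 FPKM with DMSO and 5.13 to 6.23 FPKM with verteporfin, while the T-cell marker CD3D and the monocyte marker CD14 were among the 12 without one. FPKM is a value per length and per library size, so read depth is unknown. The share of transcripts listed at 0 was 14.0% to 18.7% in the DMSO libraries and 5.23% to 11.3% in the verteporfin libraries.

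Many mitotic genes are silenced in resting cells and early in the cell cycle by the DREAM complex. Its MuvB part binds the cell cycle homology region (CHR). The genes are switched on through CCAAT boxes bound by NF-Y. RefSeq promoter windows (build GRCh38.p14, from 250 bases before to 50 bases after a gene start) were found for 37 of the 44 genes, 6 of them with more than 1 start. Not matched were AURKA, TTK, BUB3, UBE2C, BIRC5, TPX2 and FOXM1. The 100 bases before the start are printed for genes to which the values below return: 4 genes that were highest of their group in both libraries numbered 2 (CCNB2, CKS2, KIF11 and KIF4A), PLK1 and MYBL2, the kinase and the transcription factor with the smallest p-values of their roles, and CCNB1, the B-type cyclin that varied little. Capitals mark TTTGAA, the only form of the CHR element that was searched, and CCAAT. Each is marked on either strand, so that they also appear as TTCAAA and ATTGG. The windows lie on the plus strand at chr15:59105046-59105145 (CCNB2), chr9:89311095-89311194 (CKS2), chr10:92593030-92593129 (KIF11), chrX:70290004-70290103 (KIF4A), chr16:23678789-23678888 (PLK1), chr5:69167050-69167149 (CCNB1) and chr20:43667014-43667113 (MYBL2).
CCNB2: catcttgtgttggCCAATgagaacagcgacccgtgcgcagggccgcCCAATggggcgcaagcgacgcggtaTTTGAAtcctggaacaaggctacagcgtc
CKS2: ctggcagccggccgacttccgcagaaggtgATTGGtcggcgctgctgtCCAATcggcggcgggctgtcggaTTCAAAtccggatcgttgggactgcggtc
KIF11: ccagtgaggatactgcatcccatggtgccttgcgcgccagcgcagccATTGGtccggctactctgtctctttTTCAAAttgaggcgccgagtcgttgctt
KIF4A: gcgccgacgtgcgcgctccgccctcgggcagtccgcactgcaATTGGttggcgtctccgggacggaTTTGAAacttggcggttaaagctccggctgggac
PLK1: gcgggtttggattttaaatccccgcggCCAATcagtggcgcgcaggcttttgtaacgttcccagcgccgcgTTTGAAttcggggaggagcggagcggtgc
CCNB1: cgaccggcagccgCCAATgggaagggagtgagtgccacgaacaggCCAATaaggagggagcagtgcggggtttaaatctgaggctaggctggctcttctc
MYBL2: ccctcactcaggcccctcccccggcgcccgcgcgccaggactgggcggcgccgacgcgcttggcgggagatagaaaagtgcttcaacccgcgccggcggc

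In CCNB2, CKS2 and PLK1 the CHR letters began at position -29 from the start, in KIF11 at -28 and in KIF4A at -34, and a CCAAT box lay before each. CCNB1 held CCAAT at -87 and -55 with no TTTGAA in its window, and MYBL2 held neither. The printed genes that were highest in both libraries numbered 2 are examples and do not stand for all genes with that order. Among the others BUB1 and NEK2 held no TTTGAA, NDC80 and NUF2 no CCAAT, and CENPE neither. TTTGAA was found in 26 of the 37 members (70.3%), against 18.2% of the 27305 genes with a window. CCAAT was found in 31 (83.8%), against 39.7% of all genes, and 22 members (59.5%) had at least 2 copies, against 12.9%. Both elements stood in 1 window in 23 members (62.2%), against 7.26% of all genes. A CCAAT box 20 to 40 bases before TTTGAA, a spacing chosen after the positions were seen, was found in 13 members (35.1%) and in 0.85% of all genes. The 13 are CDK1, CCNB2, CKS1B, CKS2, KIF11, KIF4A, CENPF, CDC20, HMMR, PRC1, ASPM, DLGAP5 and ECT2. The letters are a description of the sequence: a match is no measured site, and windows without one say nothing about the factors. Where a CCAAT box overlaps its own reverse copy, both were counted.

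**Figure D1:**
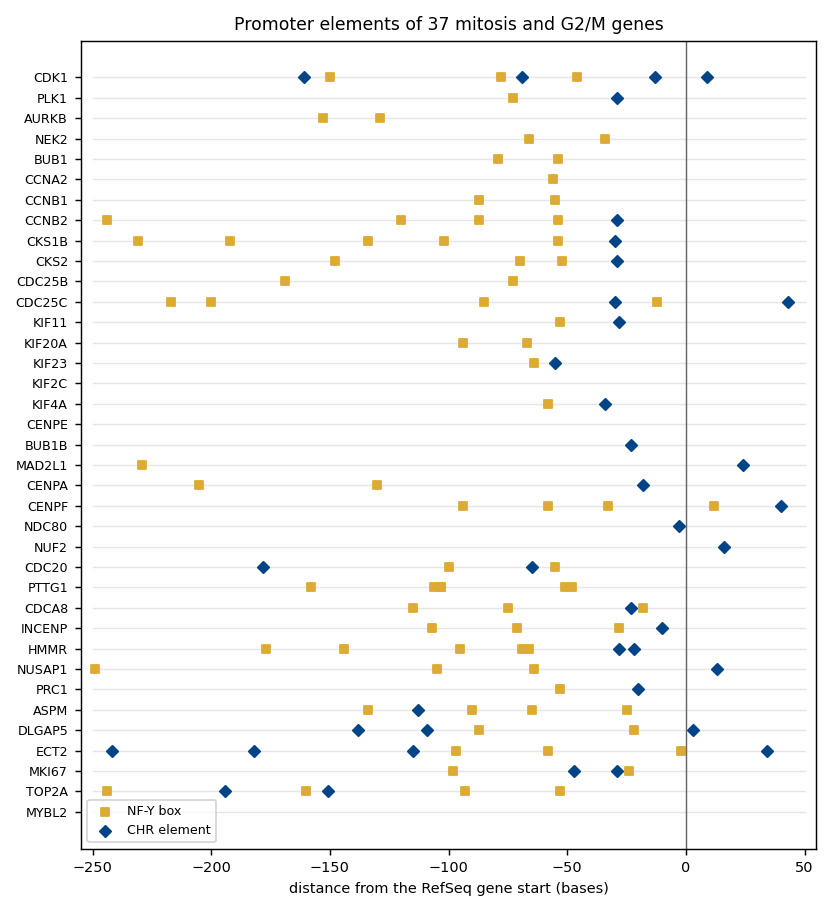
Positions of CCAAT boxes (NF-Y box, squares) and CHR elements of the form TTTGAA (diamonds) in the RefSeq promoter windows of the 37 matched genes. Each is the distance in bases from the gene start (vertical line), with the positions of all starts of a gene on its line. Many CHR elements lie within the 100 bases before the start with CCAAT boxes before them, and KIF2C, CENPE and MYBL2 show neither.

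None of the 44 genes passed the test between verteporfin and DMSO. On log2 of FPKM + 1 limma called 0 of 44 at an adjusted p below 0.05, where it called 2 of the 12952 genes tested (0.0154%). At an unadjusted p below 0.05 the count was also 0 of 44, against 8.84% of all genes. In 0 of 44 were the 3 verteporfin libraries all on one side of the 3 DMSO libraries, against 14.2% of all genes. A log2 fold change of 1 or more in either direction was reached by 0 of 44, against 4.86% of all genes. Of the members 25 had a log2 fold change (verteporfin minus DMSO) above 0 and 19 one below 0, with a median of 0.11, beside 0.01 for all genes. The lowest adjusted p of a member was 0.575, that of PLK1. In these bulk libraries fewer cells in a phase and less RNA per cell cannot be told apart.

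The 95% intervals, from the fit that takes no replicate pairs, tell how large a difference the libraries leave room for. In 34 of 44 genes (77.3%, against 68.0% of all genes) the interval lay above -1, so that it did not include a fall of 1 on the log2 scale. In 28 (63.6%, against 64.6%) it lay below 1, and in 18 (40.9%, against 35.2%) it lay within both bounds. Thus for the other 26 the interval included a 2-fold difference in at least 1 direction. The difference between the groups was smaller than the range of log2 values within the DMSO libraries in 41 of 44 and smaller than that within the verteporfin libraries in 43. The exceptions were NEK2, TPX2 and MYBL2 for DMSO and NUSAP1 for verteporfin. In all 44 it was smaller than the larger of both ranges, as in 92.1% of all genes. The median range was 0.68 within DMSO and 0.95 within verteporfin, and the verteporfin range was the larger in 32 of 44 (72.7%, against 66.4% of all genes).

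**Figure D2:**
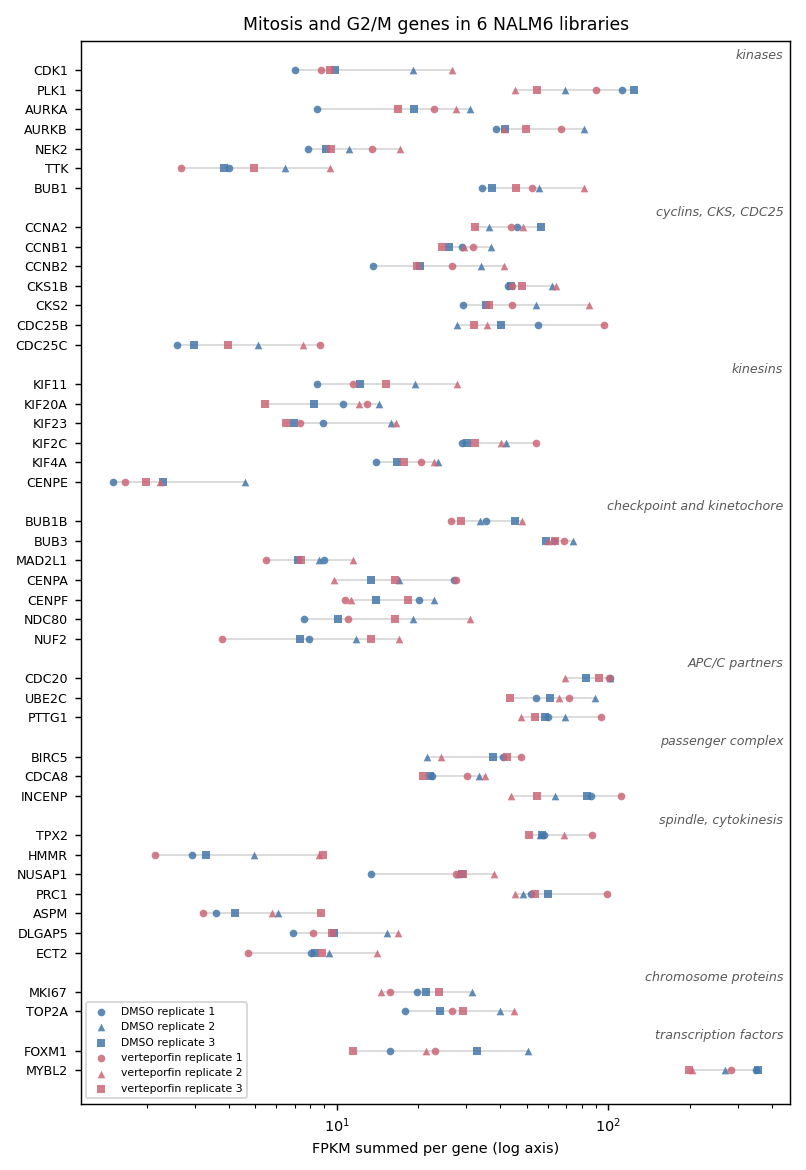
FPKM summed per gene (log axis) of the 44 genes in each of the 6 libraries, DMSO in blue and verteporfin in red, with circles, triangles and squares for replicates 1, 2 and 3, grouped by role. The colours are mixed on every line, from CENPE, the lowest, to MYBL2, the highest, and the triangles often lie at the right.

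**Figure D3:**
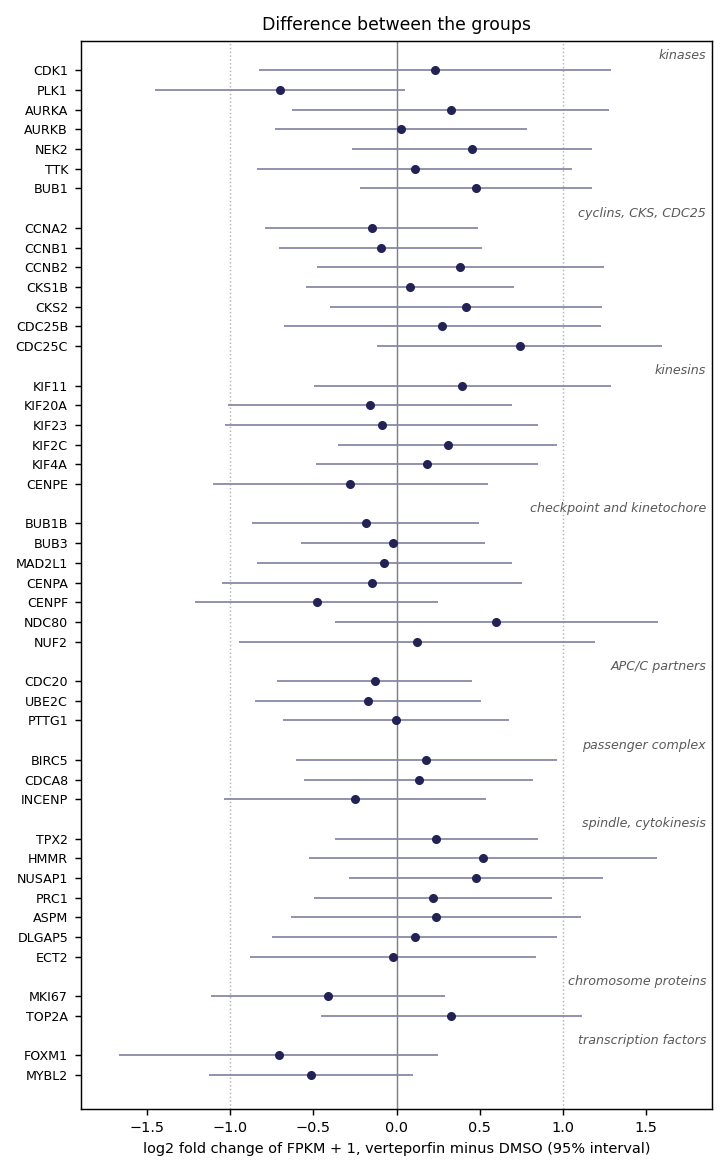
Log2 fold change of FPKM + 1 (verteporfin minus DMSO) of the 44 genes with its 95% interval from limma, grouped by role, with dotted lines at -1 and 1. Each interval includes 0, and the points run from -0.71 (FOXM1) to 0.74 (CDC25C).

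The 7 kinases had a median log2 fold change of 0.23, with 6 above 0 and PLK1 alone below 0. CDK1, the kinase that drives mitosis, was at 7.01, 19.1 and 9.88 FPKM with DMSO replicates 1, 2 and 3 and at 8.79, 26.6 and 9.48 FPKM with verteporfin. The library numbered 2 was the highest in each group and the groups overlapped (log2 fold change 0.23, 95% interval -0.83 to 1.29, adjusted p = 0.928). PLK1, the polo-like kinase of centrosomes, kinetochores and cytokinesis, was at 112, 69.1 and 125 FPKM with DMSO and at 89.8, 45.2 and 54.4 FPKM with verteporfin. Here the library numbered 2 was the lowest of each group, and verteporfin replicate 1 exceeded DMSO replicate 2. Its log2 fold change was -0.70 (SE 0.34, 95% interval -1.45 to 0.05, unadjusted p = 0.065, adjusted p = 0.575 by limma), -0.98 without verteporfin replicate 1 and -0.49 without verteporfin replicate 2.

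AURKA, the Aurora kinase of the spindle poles, was at 8.48, 30.9 and 19.3 FPKM with DMSO and at 22.8, 27.5 and 16.9 FPKM with verteporfin, so that the DMSO libraries spanned all 3 verteporfin libraries. AURKB, the Aurora kinase of centromeres and the midzone, was at 38.6, 81.1 and 41.5 FPKM with DMSO and at 66.7, 41.3 and 49.7 FPKM with verteporfin (log2 fold change 0.02). The libraries numbered 2 stood at opposite ends, the highest in DMSO and the lowest in verteporfin. BUB1, a checkpoint kinase that marks centromeric histone H2A, was at 34.2, 55.7 and 37.2 FPKM with DMSO and at 52.3, 81.5 and 45.8 FPKM with verteporfin. Verteporfin replicate 2 was the highest of all libraries, but verteporfin replicates 1 and 3 lay below DMSO replicate 2 (log2 fold change 0.48, adjusted p = 0.697 by limma). The value was 0.24 without verteporfin replicate 2 and 0.75 with protein-coding transcripts alone. NEK2, which splits centrosomes before mitosis, had a log2 fold change of 0.45, and TTK, the checkpoint kinase MPS1, one of 0.11.

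Cyclins and their partners ran from -0.15 to 0.74, with a median of 0.27 and 5 of 7 above 0. CCNB1, cyclin B1, was at 29.03, 36.98 and 26.0 FPKM with DMSO and at 31.8, 29.3 and 24.4 FPKM with verteporfin. The verteporfin libraries lay almost within the DMSO range (log2 fold change -0.10, 95% interval -0.71 to 0.51). CCNB2, cyclin B2, was at 13.6, 34.0 and 20.2 FPKM with DMSO and at 26.6, 41.1 and 19.7 FPKM with verteporfin (log2 fold change 0.38, and 0.08 without DMSO replicate 1). CCNA2, cyclin A2 of S and G2 phase, had a log2 fold change of -0.15. CKS1B and CKS2, small subunits that bind cyclin-dependent kinases, had 0.08 and 0.42, and the CKS2 value was 0.06 without verteporfin replicate 2.

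CDC25C, a phosphatase that activates CDK1 at mitosis, had the highest log2 fold change of the 44. It was at 2.58, 5.14 and 2.99 FPKM with DMSO and at 8.70, 7.49 and 3.97 FPKM with verteporfin. Verteporfin replicate 3 lay below DMSO replicate 2, so the groups overlapped, and the log2 fold change of 0.74 (SE 0.39, 95% interval -0.12 to 1.60, unadjusted p = 0.084) did not pass by limma (adjusted p = 0.600). Without single libraries it ran from 0.55 (verteporfin replicate 1) to 1.03 (verteporfin replicate 3). CDC25B, a phosphatase that starts CDK1 activation, was at 55.3, 27.7 and 40.3 FPKM with DMSO and at 96.2, 35.6 and 32.1 FPKM with verteporfin. Verteporfin replicate 1 alone stood above all other libraries, and without it the log2 fold change of 0.27 was -0.22.

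Kinesins split evenly, 3 above and 3 below 0, with a median of 0.05. KIF11, the motor that pushes the spindle poles apart, was at 8.45, 19.4 and 12.2 FPKM with DMSO and at 11.5, 27.7 and 15.2 FPKM with verteporfin. The order of the 3 libraries was the same in both groups, with number 2 the highest and number 1 the lowest (log2 fold change 0.39, and 0.057 without verteporfin replicate 2). KIF2C, which takes microtubules apart at centromeres, was at 29.02, 41.9 and 30.3 FPKM with DMSO and at 54.4, 40.3 and 32.3 FPKM with verteporfin (log2 fold change 0.31, and 0.11 without verteporfin replicate 1). KIF4A, a chromosome-bound motor, had 0.18, KIF20A and KIF23, motors of the cytokinetic midzone, had -0.16 and -0.09, and CENPE, which carries chromosomes to the spindle equator, had -0.28. CENPE was the lowest of the 44 genes, at 2.79 ± 1.60 FPKM with DMSO and 1.97 ± 0.291 FPKM with verteporfin (SD, n = 3).

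Checkpoint and kinetochore genes had a median of -0.07, with 2 above and 5 below 0. BUB3, which carries checkpoint proteins to kinetochores, varied least among the kinetochore genes, at 62.9, 73.9 and 59.0 FPKM with DMSO and 68.6, 60.0 and 63.6 FPKM with verteporfin. Its log2 fold change was -0.02, with an interval of -0.57 to 0.53. NDC80, the main microtubule anchor of the kinetochore, was at 7.55, 19.1 and 10.1 FPKM with DMSO and at 10.98, 31.1 and 16.3 FPKM with verteporfin. Library 2 was again the highest of each group (log2 fold change 0.60, adjusted p = 0.721 by limma), and the value was 0.22 without verteporfin replicate 2 and 0.95 without DMSO replicate 2. NUF2, which pairs with NDC80, had 0.13. CENPF, a large kinetochore protein of G2 and M, was at 20.2, 22.8 and 13.9 FPKM with DMSO and at 10.7, 11.3 and 18.3 FPKM with verteporfin. Verteporfin replicate 3 alone lay within the DMSO range (log2 fold change -0.48, 95% interval -1.21 to 0.25, and -0.031 with protein-coding transcripts alone). BUB1B, which encodes the checkpoint protein BUBR1, had -0.19, MAD2L1, which encodes MAD2, had -0.07, and CENPA, the histone of centromeres, had -0.15.

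The partners of the anaphase-promoting complex had small differences, all 3 below 0. CDC20, its mitotic activator, was at 102, 101 and 82.5 FPKM with DMSO and at 100.3, 69.5 and 92.1 FPKM with verteporfin (log2 fold change -0.13). UBE2C, the ubiquitin-conjugating enzyme that works with it, had -0.17, and PTTG1, which encodes securin, had -0.005. The intervals of these 3 genes all lay within -1 and 1. Of the chromosomal passenger subunits, which guide AURKB, BIRC5 (survivin) had 0.18, CDCA8 (borealin) 0.13 and INCENP, the scaffold, -0.25.

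Spindle and cytokinesis genes had a median of 0.24, with 6 of 7 above 0. TPX2, which activates AURKA on the spindle, was at 58.2, 56.0 and 57.1 FPKM with DMSO and at 87.1, 68.8 and 51.2 FPKM with verteporfin. The DMSO libraries were nearly equal while those with verteporfin spread to either side of them (log2 fold change 0.24, and 0.056 without verteporfin replicate 1). HMMR, a microtubule-binding protein of the spindle, was at 2.94, 4.95 and 3.31 FPKM with DMSO and at 2.14, 8.63 and 8.90 FPKM with verteporfin. Verteporfin replicate 1 was the lowest of all libraries, and without it the log2 fold change of 0.52 was 1.07. NUSAP1, which bundles spindle microtubules, had 0.48, and 0.13 without DMSO replicate 1, since that library stood at 13.4 FPKM and the other 5 at 27.6 to 38.0 FPKM. PRC1, a cross-linker of the midzone, had 0.22, ASPM, a protein of spindle poles, 0.24, DLGAP5, a protein of kinetochore fibres, 0.11, and ECT2, which starts the cleavage furrow, -0.02.

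MKI67, the gene of the Ki-67 proliferation marker that coats mitotic chromosomes, was at 19.8, 31.4 and 21.4 FPKM with DMSO and at 15.7, 14.5 and 23.9 FPKM with verteporfin. Verteporfin replicate 3 lay above a pair of DMSO libraries, and the log2 fold change of -0.41 had an interval of -1.11 to 0.29 and was -0.22 without DMSO replicate 2. TOP2A, the topoisomerase that untangles sister chromosomes, was at 17.8, 40.01 and 23.9 FPKM with DMSO and at 26.6, 45.0 and 29.1 FPKM with verteporfin (log2 fold change 0.33, and 0.074 without DMSO replicate 1). The 2 chromosome proteins thus had opposite signs and intervals that include 0.

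Both transcription factors had log2 fold changes below 0 and neither passed the test. FOXM1, which activates late cell cycle genes together with the MuvB complex, was at 15.7, 50.5 and 33.0 FPKM with DMSO and at 23.1, 21.3 and 11.5 FPKM with verteporfin. DMSO replicate 1 lay below verteporfin replicates 1 and 2, and the log2 fold change of -0.71 (SE 0.43, 95% interval -1.67 to 0.25, adjusted p = 0.663 by limma) was -0.34 without DMSO replicate 2 and -1.15 without DMSO replicate 1. MYBL2, which encodes B-MYB, the factor that converts MuvB into an activator, was the most abundant of the 44, at 351, 269 and 356 FPKM with DMSO and at 284, 204 and 198 FPKM with verteporfin. Verteporfin replicate 1 lay just above DMSO replicate 2, so that the groups overlapped (log2 fold change -0.51, SE 0.28, 95% interval -1.13 to 0.10, adjusted p = 0.610 by limma).

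PLK1 and MYBL2 passed under 1 other setting. When limma estimated a weight for each library, PLK1 was at -0.96 on the log2 scale (adjusted p = 0.0298) and MYBL2 at -0.72 (adjusted p = 0.0448). With these weights 1081 of the 12952 genes tested were called, a larger share than the 2 of 44. The weights of verteporfin replicates 1, 2 and 3 were 0.416, 0.363 and 3.88, so that replicate 3 counted most. Summed over the 44 genes, the libraries stood at 1588, 1774 and 1655 FPKM with DMSO and at 1850.5, 1638 and 1371 FPKM with verteporfin, with verteporfin replicates 1 and 3 at the ends of the range. The sign of single differences depended on single libraries: 25 of the 44 turned sign when some 1 library was left out, and 19 kept it. The median of the 44 was -0.01 without DMSO replicate 1 and 0.22 without DMSO replicate 2.

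Within both groups the 44 genes differed by library, and the libraries numbered 2 were often at an end of the range. DMSO replicate 2 was the highest DMSO library in 31 of 44 (70.5%, against 46.6% of all genes), and verteporfin replicate 2 the highest verteporfin library in 22 of 44 (against 40.3% of all genes). In 18 members (40.9%, against 28.4% of all genes) the library numbered 2 was the highest of both groups. These were the kinases CDK1, AURKA, NEK2, TTK and BUB1, the cyclin and its partners CCNB2, CKS1B and CKS2, the kinesins KIF11, KIF23, KIF4A and CENPE, the kinetochore genes NDC80 and NUF2, and CDCA8, DLGAP5, ECT2 and TOP2A. The median member stood 0.26 (DMSO replicate 2) and 0.25 (verteporfin replicate 2) above its own mean over the 6 libraries on the log2 scale. The other libraries were at -0.22 and -0.16 in DMSO and at 0.08 and -0.13 in verteporfin. Over all genes tested the same medians ran from -0.10 to 0.08.

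In 4 members, PLK1, BIRC5, INCENP and PRC1, the library numbered 2 was the lowest of both groups (9.09%, against 20.8% of all genes). The 18 and the 4 differed in base composition: the GC content of their listed transcripts was 33.9% to 51.1% (median 41.0%) in the 18 and 48.0% to 59.4% (median 55.3%) in the 4. Across the 44 genes the offset of DMSO replicate 2 from the other DMSO libraries went with that of verteporfin replicate 2 from its own group (Pearson r = 0.611, Spearman rho = 0.575, n = 44 genes). The GC content correlated with the offset at r = -0.510 in DMSO and r = -0.741 in verteporfin, and over all 12952 genes at -0.463 and -0.709. The points are genes of the same 6 libraries and share their base composition, so these are descriptions and no test. The part of GC content in the offsets was not tested.

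The GC content also went with the difference between the groups, at r = -0.402 across the 44 genes and r = -0.316 across all genes. PLK1 (58.1%), FOXM1 (54.2%) and MYBL2 (60.1%), the members with the lowest log2 fold changes, lay above the members' median of 45.4%, while NDC80 (40.7%) and HMMR (37.4%), at the other end, lay below it, and CDC25C (45.6%) at it. CDC25B (59.4%), with a log2 fold change above 0, and CENPF (41.6%), with the next lowest log2 fold change, did not follow that order. All genes tested had a median of 50.6%. The part of GC content in these differences was not tested. Without both libraries numbered 2, a setting added after the data were seen, PLK1 was at -0.75, FOXM1 at -0.46, MYBL2 at -0.57 and CDC25C at 0.88. In that setting 0 of 44 members were called, and also 0 of all 12952 genes.

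**Figure D4:**
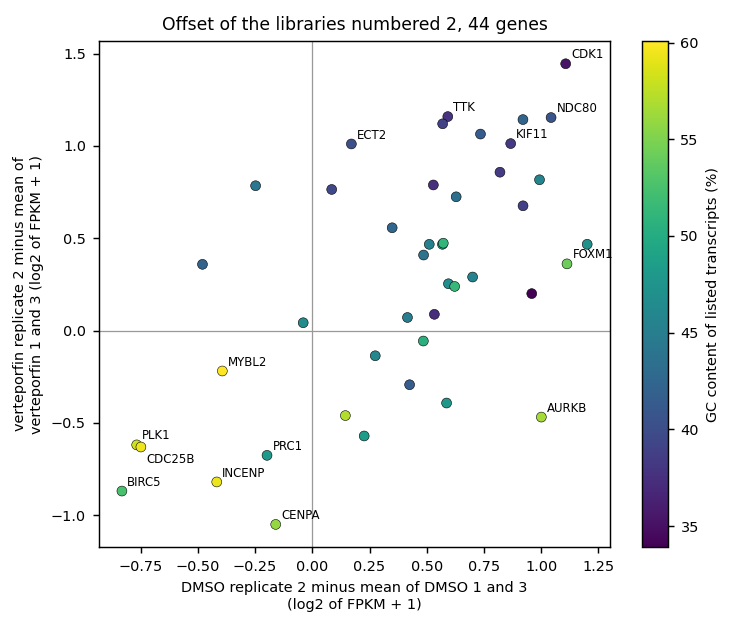
For each of the 44 genes, the offset of DMSO replicate 2 from the mean of the other DMSO libraries (horizontal) against that of verteporfin replicate 2 from the mean of the other verteporfin libraries (vertical), both on log2 of FPKM + 1, coloured by the GC content of the gene's listed transcripts. Genes of low GC content such as CDK1, KIF11 and NDC80 lie at the upper right and PLK1, INCENP and BIRC5 at the lower left (r = 0.611 across genes).

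Within most of the 44 genes single transcripts had differences of opposite sign. Of 239 transcripts listed 224 were tested, and 0 were called at an adjusted p below 0.05 (17 of all 55148, 0.0308%). At an unadjusted p below 0.05 there were 10 (4.46%, against 6.55% of all transcripts), and in 17 (7.59%, against 12.3%) the groups did not overlap. Of 41 members with more than 1 tested transcript 38 had transcripts of both signs. The transcripts described next were picked with their values in view.

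The lowest adjusted p was that of KIF2C-201 (ENST00000372217), at 1.69, 0 and 1.48 FPKM with DMSO and at 14.0, 23.5 and 10.6 FPKM with verteporfin (log2 fold change 3.11, adjusted p = 0.257 by limma on single transcripts). All 3 verteporfin libraries lay above all 3 DMSO libraries. The main KIF2C transcript, KIF2C-202 (ENST00000372224), went the other way, at 19.6, 30.9 and 20.3 FPKM with DMSO and at 33.4, 11.6 and 10.0 FPKM with verteporfin (log2 fold change -0.52). The KIF2C sum thus combined transcripts of opposite sign. In MYBL2 the transcript MYBL2-202 (ENST00000396863) was at 207, 138 and 60.5 FPKM with DMSO and at 43.0, 1.29 and 40.2 FPKM with verteporfin (log2 fold change -2.91, adjusted p = 0.759). The other MYBL2 transcript tested, ENST00000217026, was at 144, 131 and 296 FPKM with DMSO and at 241, 202 and 158 FPKM with verteporfin (0.16). The groups thus did not overlap in the first and overlapped in the second, and the lower sum of MYBL2 lay in 1 transcript.

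In PLK1 the main coding transcript, ENST00000300093, was at 50.6, 51.2 and 54.97 FPKM with DMSO and at 49.2, 18.7 and 21.2 FPKM with verteporfin (log2 fold change -0.93, adjusted p = 0.759). Here every verteporfin library lay below every DMSO library, though verteporfin replicate 1 by little. The processed transcript PLK1-204 (ENST00000564202) varied with the library number, at 50.7, 5.82 and 61.2 FPKM with DMSO and at 26.1, 7.13 and 18.9 FPKM with verteporfin. It accounts for most of the low PLK1 sum in DMSO replicate 2. The UBE2C transcript UBE2C-201 (ENST00000243893) was at 5.08, 1.91 and 3.39 FPKM with DMSO and at 0, 1.24 and 0 FPKM with verteporfin, and CENPA-201 (ENST00000233505) at 0, 0.145 and 0 FPKM with DMSO and at 2.52, 1.47 and 1.15 FPKM with verteporfin. Neither passed (adjusted p = 0.632 and 0.571), and both had groups that did not overlap. A transcript is listed only with a mean of at least 0.5 FPKM in some group. UBE2C-201 met this through DMSO alone and CENPA-201 through verteporfin alone, which favours such a separation.

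Part of the members' RNA was listed under transcripts that keep an intron, 58 of the 239. In BUB1 these held 75.7% ± 0.646 of the FPKM with DMSO and 70.1% ± 8.48 in verteporfin (SD, n = 3), so that the kinase-coding transcripts were the smaller share of that gene. In KIF23 they held 72.6%, 35.4% and 52.7% in DMSO and 29.5% ± 0.486 (SD, n = 3) in verteporfin. All 3 verteporfin libraries were lower and close together, while the DMSO libraries were far apart. In other members the mean share was higher with verteporfin. In AURKB it was 36.5% ± 12.5 with DMSO and 48.8% ± 19.6 with verteporfin, and in PLK1 10.75% ± 5.83 and 16.85% ± 0.978 (SD, n = 3). These genes are examples, and the shares were not set beside those of all genes. The share of transcripts listed at 0 also differed between the groups, and its part in these transcript values was not tested.

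**Figure D5:**
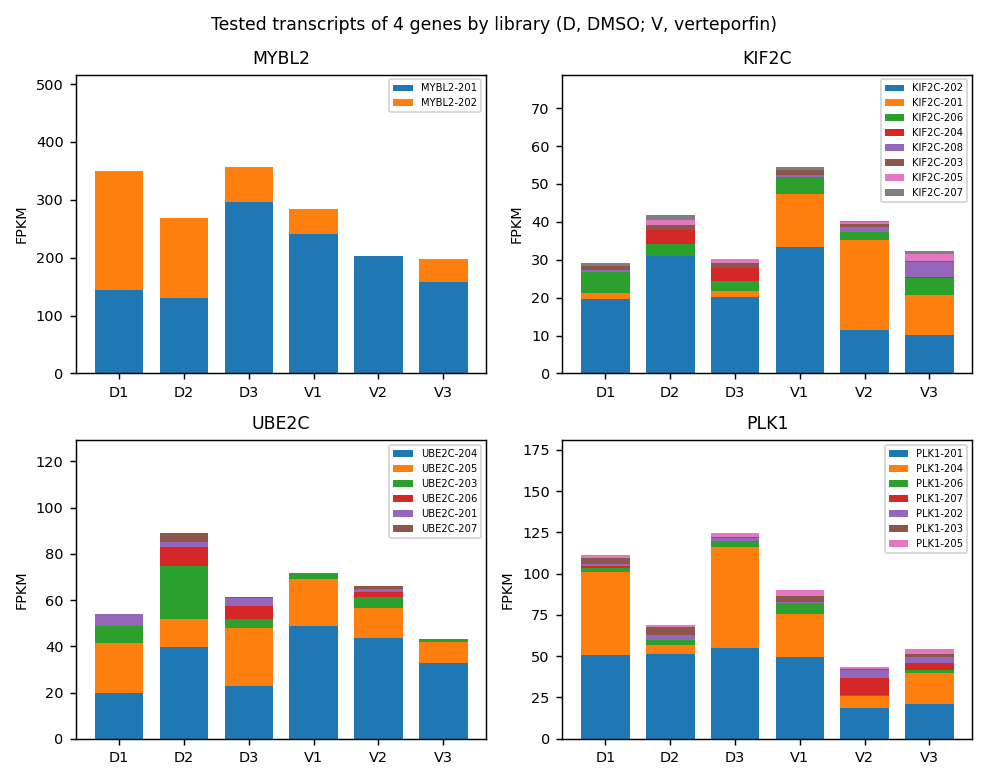
FPKM of the tested transcripts of MYBL2, KIF2C, UBE2C and PLK1 in each library (D, DMSO; V, verteporfin; numbers are replicates), stacked so that a bar's height is their sum. MYBL2-202 is small in the verteporfin libraries, KIF2C-201 is large in them, and PLK1-204 is small in both libraries numbered 2.

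Further genes of the same process were read beside the members: 118 genes in 6 lists. Of these 0 were called, 2 had an unadjusted p below 0.05 (8.84% of all genes had one), and in 7 (5.93%, against 14.2% of all genes) the groups did not overlap. Their median log2 fold change was 0.04, with 65 above and 53 below 0. One list stood lower in its median than the others, that of 13 further regulators of mitotic entry (median -0.46, 9 of 13 below 0), which was not tested against them. Within it ENSA, whose product blocks the phosphatase PP2A at mitosis, was at 81.5, 85.2 and 93.4 FPKM with DMSO and at 42.7, 60.0 and 70.3 FPKM with verteporfin (log2 fold change -0.61, unadjusted p = 0.0499, adjusted p = 0.563). CDCA2, which brings the phosphatase PP1 to chromosomes, was at 31.1, 32.6 and 52.1 FPKM with DMSO and at 25.5, 19.1 and 25.7 FPKM with verteporfin (-0.67, unadjusted p = 0.0494, adjusted p = 0.562). In both genes every verteporfin library lay below every DMSO library. Groups did not overlap in 3 of the 13 genes of this list (23.1%, against 14.2% of all genes), though this was rarer over the 6 lists together. MASTL, the kinase that switches ENSA on, had 0.72 (adjusted p = 0.618), and BORA, a cofactor of PLK1 activation, 0.46.

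Among 32 further kinetochore genes the smallest p-values were those of SKA1 (0.78) and CENPC (0.80) above 0 and of ZWINT (-0.45) and PMF1 (-0.49) below 0, none under an adjusted p of 0.593. SKA1 couples kinetochores to microtubule ends and CENPC is the base on which the kinetochore is built. Of 28 further genes of the anaphase-promoting complex and of cohesion, the complex subunits ANAPC16 (0.59) and CDC27 (0.63) had log2 fold changes above 0 and ANAPC15 (-0.60) and ANAPC11 (-0.69) below 0. Among 8 condensin genes, whose products compact chromosomes, SMC4 had 0.59, NCAPD2 0.36, NCAPH2 -0.53 and NCAPD3 -0.13. Among 25 further spindle and cytokinesis genes CKAP2L had 0.58, the citron kinase gene CIT 0.43, FAM83D -0.69 and the kinesin gene KIF18B -0.35. Of the 12 genes of the MuvB and DREAM complex, which binds the CHR described above, LIN54, its DNA-binding subunit, had 0.55, LIN52 0.33, TFDP1, the partner of E2F factors, -0.55 and E2F4 -0.37. These genes did not pass the test, and within each list both signs occurred.

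CDKN1A, which encodes p21, an inhibitor of the cyclin-dependent kinases, had a larger difference than any of the 44 genes. It was at 60.4, 44.6 and 80.6 FPKM with DMSO and at 177, 224 and 485 FPKM with verteporfin, so that the groups did not overlap. Its log2 fold change was 2.14 (SE 0.39, unadjusted p = 0.000241, adjusted p = 0.148 by limma), which does not pass the threshold.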

How the data were processed

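The authors deposited FPKM, a read measure per transcript length and library size, for each Ensembl transcript. HISAT2 2.1.0, StringTie 1.3.3 and the build hg18 are among the names in the submitters' processing notes. Most identifiers belong to a later annotation, so the only coordinates given are those of the RefSeq promoter windows. No transcript is listed whose mean is below 0.5 FPKM in both groups, so sums miss rarer transcripts. A further 4765 entries hold whole numbers and were left out. Depth is unknown, since FPKM do not keep it.

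GENCODE 29 matched 61975 of 62250 transcripts, and 275 (0.442%) were left out. Summed FPKM of 12952 genes with a mean of at least 0.5 entered limma 3.58.1 (R 4.3.3) as log2 of FPKM + 1, with eBayes, a variance trend, 2-sided tests and 95% intervals, adjusted by Benjamini-Hochberg over all genes, threshold 0.05. The fit was also run on simulated data, with changes larger than that of any member and libraries that varied independently. That run does not tell how well differences of the members' size would be found. How reads were divided among transcripts and paralogs affects the sums. Symbols were matched through current gene names, and GC content came from GENCODE 29 transcripts weighted by FPKM. Python 3.11.15, pandas 2.3.3, numpy 2.4.6 and matplotlib 3.10.9 did the rest.

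Groups were taken from the sample titles. The members and lists were chosen with earlier results of these data known. Named were all 44 members, CDKN1A, and from each further list the genes past the threshold or, with none, up to 2 of the smallest unadjusted p in each direction. The alternatives were other minimums, pseudocounts, scalings, variance models, a replicate block, protein-coding transcripts alone and leaving out libraries.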

Additional observations from a re-analysis of the deposited data

How the results depend on the processing

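The members' count of 0 called held under each alternative except library weights (2, PLK1 and MYBL2), and their median stayed between -0.01 and 0.22 without single libraries. Over all genes limma called 2; 0 with a pseudocount of 0.1, equal medians, no variance trend, protein-coding transcripts alone or without both libraries numbered 2 (1434 at an unadjusted p below 0.05, a setting added after the data were seen); 1081 with library weights; and 0 to 12 without single libraries. The further mitosis lists had 0 called and 4 of 118 with library weights (CCNF, CENPC, CENPH and PRR11), a smaller share than over all genes. A replicate block gave 84 called genes and 0 members (lowest adjusted p 0.157, PLK1). Same-numbered libraries correlated in their deviations at 0.389, 0.509 and 0.0985. The first 2 values were the highest of all pairings of a DMSO with a verteporfin library, while verteporfin replicate 3 correlated best with DMSO replicate 1 (0.138). The numbers were not taken as pairs because the labels do not say that equal numbers share a culture or a day. Whether the libraries are pairs was not tested. Depth sets no stated limit here, since FPKM hold no counts.

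Signs turned as follows, with the log2 fold change of the setting and the cause not tested. Equal medians gave AURKB -0.018. Quantile normalization gave BUB3 0.13, CDC20 0.021, PTTG1 0.13 and TTK -0.0053. Library weights gave BUB3 0.033, CDC20 0.0011, CDC25B -0.22, CDCA8 -0.078, ECT2 0.037 and TPX2 -0.058. Protein-coding transcripts alone gave AURKB -0.34, BUB1B 0.12, CENPA 0.24, CKS1B -0.36, KIF20A 0.024, KIF23 0.47, MAD2L1 0.13 and PTTG1 0.058. Without both libraries numbered 2 the values were BUB3 0.12, CCNB1 0.020, CDC20 0.069, CENPA 0.15, NUF2 -0.058, PTTG1 0.26 and TTK -0.080. Without single libraries the ranges were ASPM -0.051 to 0.55, AURKA -0.15 to 0.73, AURKB -0.17 to 0.36, BIRC5 -0.098 to 0.47, BUB3 -0.091 to 0.070, CCNA2 -0.31 to 0.019, CCNB1 -0.20 to 0.043, CDC20 -0.24 to 0.021, CDC25B -0.22 to 0.56, CDCA8 -0.024 to 0.34, CDK1 -0.25 to 0.60, CENPA -0.50 to 0.20 and CENPE -0.54 to 0.042. The others ran from -0.077 to 0.25 in CKS1B, -0.18 to 0.38 in DLGAP5, -0.36 to 0.34 in ECT2, -0.64 to 0.020 in INCENP, -0.36 to 0.20 in KIF20A, -0.47 to 0.22 in KIF23, -0.33 to 0.15 in MAD2L1, -0.25 to 0.71 in NUF2, -0.11 to 0.44 in PRC1, -0.30 to 0.19 in PTTG1, -0.28 to 0.48 in TTK and -0.32 to 0.045 in UBE2C. The other 19 members kept their sign without any single library, but the value fell near 0 in several: KIF4A was at 0.021 and TOP2A at 0.074 without DMSO replicate 1, KIF11 at 0.057 without verteporfin replicate 2, and TPX2 at 0.056 and BUB1B at -0.026 without verteporfin replicate 1.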

Other observations

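Genes of S phase, which comes before G2 and mitosis, were read as a neighbouring process. Of 29 such genes 0 passed limma's test, 0 had an unadjusted p below 0.05 (8.84% of all genes had one), and in 1, FEN1, the groups did not overlap (3.45%, against 14.2% of all genes). The median log2 fold change was -0.02, with 12 above and 17 below 0. FEN1, the flap endonuclease that finishes lagging-strand fragments, was at 117, 97.1 and 101 FPKM with DMSO and at 68.6, 73.1 and 75.2 FPKM with verteporfin (log2 fold change -0.53, adjusted p = 0.563). MCM4, a subunit of the replicative helicase, had -0.50 (adjusted p = 0.637), and -0.77 with library weights (adjusted p = 0.0379). PRIM1, a primase subunit, was at 10.2, 14.7 and 3.39 FPKM with DMSO and at 7.73, 43.0 and 13.8 FPKM with verteporfin (0.96, adjusted p = 0.684), with the library numbered 2 the highest of each group. RFC5, a subunit of the clamp loader, had 0.29.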
